A study of Mus musculus with 4 samples.

Results

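A set of 10 genes used by cytotoxic T lymphocytes and natural killer (NK) cells were followed in RNA from medullary thymic epithelial cells (mTECs), the cells that display self antigens to developing T cells. The 10 genes were picked by function, out of 23366 gene symbols in the deposited table, with their counts in these samples already known, so their levels below are a description. They were the granule and cytolysis genes Gzma, Gzmb, Prf1 and Nkg7, the receptor genes Klrd1, Klrk1, Klrb1c, Ncr1 and Il2rb, and the chemokine gene Ccl5. The RNA came from wild-type C57BL/6 mice aged 6 to 8 weeks, with no other allele or agent in the labels, and the groups were 2 pools of female mice and 2 pools of male mice, with 10 mice in each pool. The sorted gate was negative for propidium iodide and for the leukocyte marker CD45, positive for MHC class II and low for Ly51. Each pool is thus a mixture of animals, the spread between animals could not be measured, and a p-value below measures only the spread between pools.

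Cytotoxic lymphocytes kill by releasing granules at the contact with a target cell. Perforin, made from Prf1, opens the way into the target, and granzymes A and B, made from Gzma and Gzmb, are the serine proteases that enter it. Nkg7 encodes a membrane protein of the granule that takes part in its release. NKG2D (Klrk1) recognises stress-induced MHC-like ligands, CD94 (Klrd1) pairs with NKG2 chains to read non-classical MHC, and NK1.1 (Klrb1c) and NKp46 (Ncr1) are the classical markers of mouse NK cells in this strain. Il2rb encodes the chain that the IL-2 and IL-15 receptors share, on which NK cells depend for survival. CCL5, also called RANTES, is a chemokine that effector T cells and NK cells make, and myeloid and other cells make it too.

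The promoters of the 4 granule genes and of Klrk1 are shown because their order of pools differed, granule genes against Klrk1, and a promoter is where the transcription of a gene starts. They are the 250 bases before the annotated start, 5′ to 3′ on the gene's strand, from RefSeq on GRCm38.p6, at chr13:113100982-113101231 (minus strand) for Gzma, chr14:56262335-56262584 (minus) for Gzmb, chr10:61297586-61297835 (plus) for Prf1, chr7:43436888-43437137 (plus) for Nkg7 and chr6:129623865-129624114 (minus) for Klrk1. Capitals mark the RUNX letters TGTGGT and the T-box core AGGTGT on either strand, the sequences that the RUNX and T-box families, to which the lymphocyte factors Runx3, T-bet and Eomes belong, can bind.
Gzma: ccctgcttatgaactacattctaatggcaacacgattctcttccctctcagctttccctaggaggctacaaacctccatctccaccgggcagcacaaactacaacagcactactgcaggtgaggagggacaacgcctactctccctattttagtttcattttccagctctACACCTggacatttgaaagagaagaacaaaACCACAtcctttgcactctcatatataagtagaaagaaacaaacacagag
Gzmb: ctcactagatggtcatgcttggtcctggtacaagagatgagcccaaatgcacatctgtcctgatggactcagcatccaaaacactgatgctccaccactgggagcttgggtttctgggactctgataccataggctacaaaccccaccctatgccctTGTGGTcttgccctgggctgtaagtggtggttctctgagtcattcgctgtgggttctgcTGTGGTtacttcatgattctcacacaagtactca
Prf1: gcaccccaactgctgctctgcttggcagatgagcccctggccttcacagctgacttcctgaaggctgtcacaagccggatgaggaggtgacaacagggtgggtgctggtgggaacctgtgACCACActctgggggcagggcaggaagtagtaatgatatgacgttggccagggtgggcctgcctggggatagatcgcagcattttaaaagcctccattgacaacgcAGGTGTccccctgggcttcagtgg
Nkg7: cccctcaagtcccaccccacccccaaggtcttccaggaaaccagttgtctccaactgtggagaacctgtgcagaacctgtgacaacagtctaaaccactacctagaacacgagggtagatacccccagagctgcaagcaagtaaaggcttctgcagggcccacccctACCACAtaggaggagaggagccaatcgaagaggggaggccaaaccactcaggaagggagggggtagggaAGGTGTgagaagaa
Klrk1: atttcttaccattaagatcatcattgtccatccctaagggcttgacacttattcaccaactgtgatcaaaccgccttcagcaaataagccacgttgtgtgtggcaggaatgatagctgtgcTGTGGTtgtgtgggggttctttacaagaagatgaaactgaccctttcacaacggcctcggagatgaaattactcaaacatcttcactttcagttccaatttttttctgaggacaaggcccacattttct
Of the 10 members, 7 were matched in the promoter table, the other members being Klrd1, Il2rb and Ccl5. The letters TGTGGT were in 7 of these 7, against 14.0% of 32851 promoters of the same length. The T-box core was in Gzma, Prf1 and Nkg7, against 11.8% of promoters. A longer form of it, AGGTGTG, was in Nkg7 alone, against 5.1%. The core began 80 bases before the start in Gzma, 24 before it in Prf1 and 14 before it in Nkg7, and none of these matches overlapped a RUNX match. Both motifs were chosen after the promoters had been read, and a match is a description of the letters only.

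The 4 pools held between 1976272 and 7103627 reads on genes, with male pool 1 the deepest and female pool 2 the shallowest. Levels are given as normalized CPM, a gene's reads relative to all reads on genes in that pool after scaling by the trimmed mean of M-values (TMM), and a count of 3 reads, used as the detection floor, equals 0.358 CPM in male pool 1 and 1.48 CPM in female pool 2. The sex labels held: Xist was counted 349 and 111 times in the female pools and 7 and 18 times in the male pools, and Ddx3y 0 and 0 times against 445 and 89. The genes listed as mTEC markers, among them Psmb11, a gene of cortical thymic epithelial cells, summed to 537 to 769 CPM per pool. All 12 of them were tested and none was at 0. A large part of that sum was Cd40, with 368 and 383 CPM in the female pools and 300 and 341 CPM in the male pools. Of the epithelial genes on the list, Krt8 ran from 43.2 to 128 CPM over the pools, Epcam from 37.0 to 51.6 and Krt5 from 2.72 to 13.5. Whether the sum measures mTEC RNA alone was not tested. Aire, the regulator through which mTECs make self antigens, had 19.3, 31.7, 19.7 and 28.9 CPM in female pools 1 and 2 and male pools 1 and 2. RNA of blood cells was there too, in a gate set against CD45: the gene for CD45 itself, Ptprc, had 280.0 and 179.6 CPM in the female pools and 304 and 219 CPM in the male pools, and 8 B cell markers summed to 2514 to 4571 CPM. In such bulk samples, fewer cells of a type and less RNA per cell cannot be told apart.

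The granule genes stood highest in male pool 1. Gzma, on chromosome 13 (113884033-113891187, minus strand, 6 exon blocks; positions of genes here and below on NCBIM37, the mm9 build), was counted 15 times in female pool 1, 0 times in female pool 2, 224 times in male pool 1 and 12 times in male pool 2. These counts equal 4.08, 0, 26.8 and 4.62 CPM. A count of 0 in female pool 2 allows up to the floor of 1.48 CPM there, and the sexes were kept apart by the narrow gap between female pool 1 and male pool 2. Nkg7 (chromosome 7, 50692443-50693616, plus strand, 4 exon blocks) had 31, 6, 322 and 22 reads in the same order, or 8.43, 2.97, 38.5 and 8.47 CPM. The lower male pool and the higher female pool were thus at almost the same level. Gzmb (chromosome 14, 56877693-56881097, minus strand, 5 exon blocks) had 10, 8, 81 and 3 reads, or 2.72, 3.96, 9.68 and 1.16 CPM. Here male pool 2 was the lowest of the 4 pools, at its floor. Prf1 (chromosome 10, 60760584-60767011, plus strand, 3 exon blocks) had 2, 1, 18 and 2 reads, so it was above the floor of 3 reads in male pool 1 alone, at 2.15 CPM. Together the 4 granule genes summed to 15.8, 7.42, 77.1 and 15.0 CPM, with 645 of their reads in male pool 1 and 39 in male pool 2.

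The receptors did not share one order of pools. Klrk1 (chromosome 6, 129560341-129573882, minus strand, 8 exon blocks) was the evenest of the members counted above the floor in every pool, with 26.1, 31.7, 22.3 and 32.0 CPM in female pools 1 and 2 and male pools 1 and 2, a highest pool 1.43 times the lowest. Klrd1, on the same chromosome (6, 129541800-129548793, plus strand, 7 exon blocks), had 19.3, 10.9, 13.9 and 25.0 CPM. Its sexes overlapped, and the highest pool was male pool 2, the pool in which Gzmb was lowest. Il2rb (chromosome 15, 78310983-78325496, minus strand, 11 exon blocks) had 46.8, 15.8, 55.6 and 10.8 CPM. Both pools numbered 1 were above both pools numbered 2, and each sex held a high and a low pool. The NK cell markers proper were close to absent. Klrb1c (chromosome 6, 128728503-128739233, minus strand, 7 exon blocks) had 0, 0, 17 and 0 reads, and Ncr1 (chromosome 7, 4289326-4296766, plus strand, 6 exon blocks) 0, 0, 3 and 0, the latter at the floor. The Klrb1c value is uncertain, since 4.93% of the 50-base runs in its exons also occur in Klrb1a, Klrb1b or Klrb1-ps1.

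Ccl5 (chromosome 11, 83339280-83344020, minus strand, 3 exon blocks) was on another scale, with 2579, 2799, 3693 and 9619 reads, or 701, 1385, 441 and 3704 CPM in the same order of pools. Male pool 1, where the granule genes were highest, held the lowest Ccl5 level, and both pools numbered 2 were above both pools numbered 1. Ccl5 made up 72.0% of the normalized counts of all 10 members in male pool 1 and 97.8% in male pool 2. A sum over the members is therefore mostly Ccl5: 809, 1451, 612 and 3787 CPM with it, and 108, 65.8, 171 and 82.8 CPM without it.

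**Figure D1:**
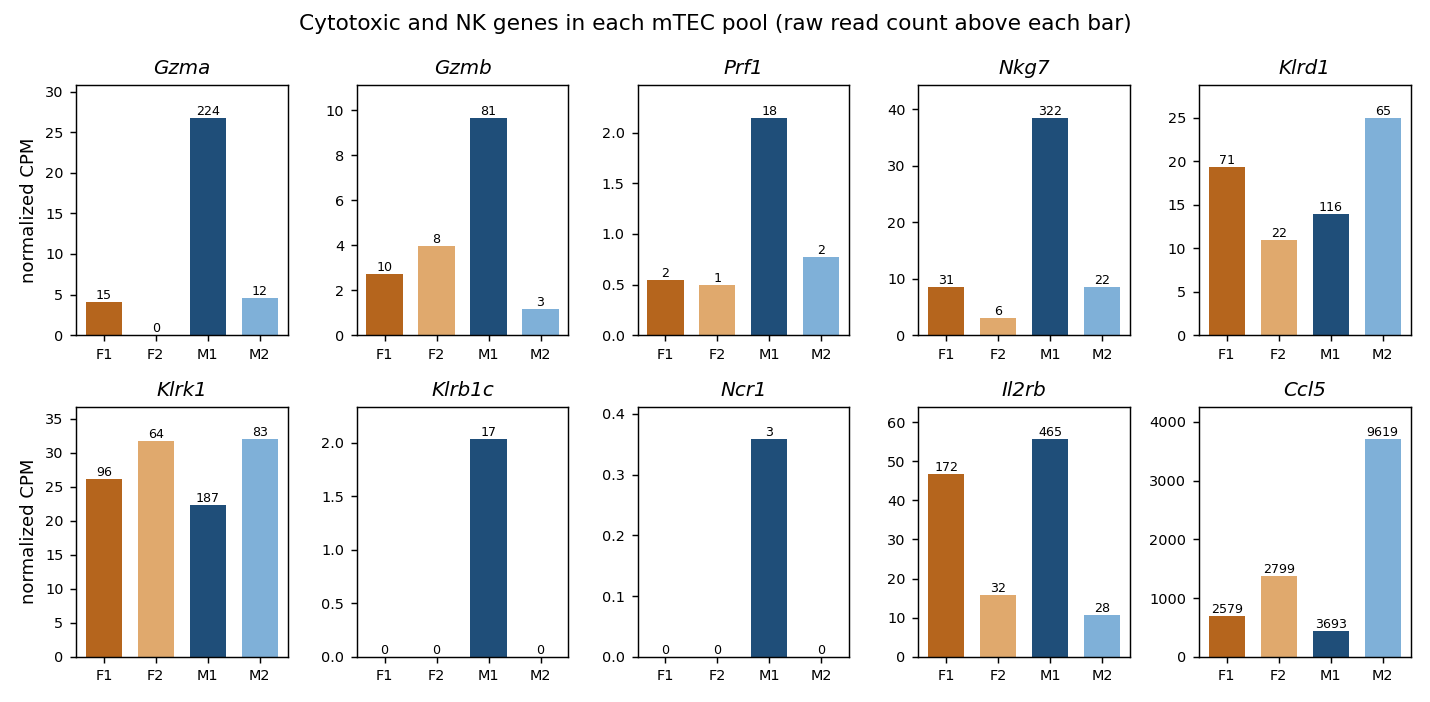
Bars give the normalized CPM (vertical axis, linear from 0, its range set for each gene) of each of the 10 members in female pools 1 and 2 (F1, F2) and male pools 1 and 2 (M1, M2), 1 panel a gene and 1 bar a pool, with the raw read count above each bar. Gzma and Nkg7 reach 26.8 and 38.5 CPM in male pool 1, whereas Ccl5 has its lowest value there, 441 CPM.

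Compared per length of exon, as CPM per kilobase (RPKM), the order of mean levels over the 4 pools was Ccl5 (1623 RPKM), Nkg7 (16.6), Klrd1 (13.5), Il2rb (11.6), Gzma (9.44), Klrk1 (6.49), Gzmb (3.09), Prf1 (0.482), Klrb1c (0.171) and Ncr1 (0.0582). Ccl5 was above every other member in every pool, its lowest value being 460 RPKM. The neighbours from Nkg7 to Klrk1 overlapped in their ranges: Nkg7 ran from 3.38 to 43.8 RPKM, Klrd1 from 8.5 to 19.5, Il2rb from 3.87 to 19.9, Gzma from 0 to 28.5 and Klrk1 from 5.17 to 7.40. Gzmb, from 0.815 to 6.82, overlapped Klrk1 as well, and Prf1, from 0.241 to 1.05, overlapped Gzmb.

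**Figure D2:**
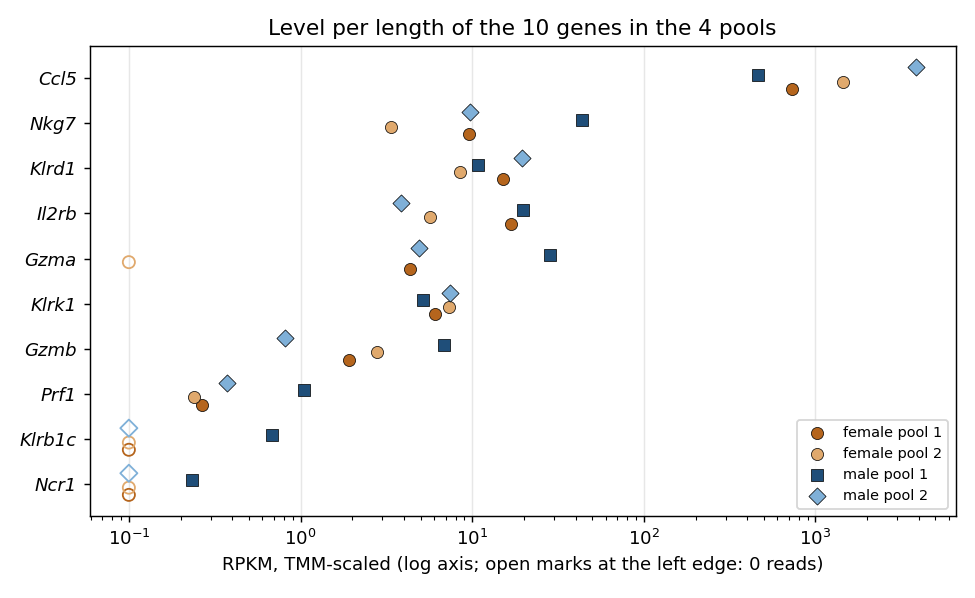
RPKM (horizontal axis, log scale) of the 10 members in each of the 4 pools, ordered by their mean, with a point a pool and a count of 0 drawn as an open symbol at the left edge. Ccl5 lies apart at 460 RPKM and above, and the points of the next members overlap.

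The design's own question was whether gene expression in these cells differed between the sexes. Of the 10 members, 7 passed the filter on low counts and were tested, and Prf1, Klrb1c and Ncr1 were not. At a Benjamini-Hochberg adjusted p under 0.05, edgeR's quasi-likelihood test called 0 members, and it called 0 of all 10865 genes tested (0%). The sex genes Xist, Ddx3y and Eif2s3y were thus missed too, though their counts parted the sexes. Ddx3y and Eif2s3y each had an adjusted p of 0.186 in this test. A gene not called here is therefore not shown to be equal in the sexes. The paper lists genes induced in males at a false discovery rate under 0.05, some of them on the Y chromosome. Before adjustment, 48 genes including 2 members had a p under 0.05, and edgeR's exact test called 8 genes and DESeq2 3, none of them a member. These 2 members were Nkg7, at 5.70 ± 3.86 CPM in females and 23.5 ± 21.2 CPM in males (SD, n = 2), with a log2 difference of male over female of 2.01 ± 0.785 (SE, adjusted p = 1), and Gzma, at 2.04 ± 2.88 against 15.7 ± 15.7 CPM, with 2.77 ± 1.13 (SE, adjusted p = 1). The male SD equalled or nearly equalled the male mean in both, and neither difference passed the adjusted threshold. With no filter on low counts both passed, Gzma at 2.79 (adjusted p = 0.00153) and Nkg7 at 2.02 (adjusted p = 0.0276), in a fit that called 26 genes. Ccl5 had a log2 difference of 0.99 ± 0.937, Gzmb of 0.85 ± 0.891, Klrd1 of 0.32 ± 0.461, Il2rb of 0.10 ± 0.773 and Klrk1 of -0.10 ± 0.341, each within about its own SE or little past it. The narrow error of Klrk1 came with 28.9 ± 3.94 CPM in females and 27.2 ± 6.80 in males. Without male pool 1 the log2 difference of male over female was -1.58 for Il2rb, 1.83 for Ccl5, 0.92 for Gzma and 0.47 for Nkg7. Without male pool 2 it was 3.43 for Gzma and 2.65 for Nkg7. These differences thus depended on which male pool was kept. Each such fit set a lone male pool of a single number against female pools of both numbers. Sex was then partly confounded with pool number, and the fits cannot separate them.

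The pools also carried the numbers 1 and 2 within each sex, and the labels do not say what a number stands for. Comparing pools numbered 2 with pools numbered 1 called 1 of the 7 tested members, against 221 of 10865 genes (2.03%), of which 202 were higher and 19 lower in pools numbered 2. The member was Il2rb, lower in pools numbered 2 by the quasi-likelihood test with a log2 difference of -1.96 ± 0.286 (SE, adjusted p = 0.0391), and it was called under each of 12 alternatives that could change its p. Ccl5 was higher in pools numbered 2, with a log2 difference of 2.16 ± 0.525 (SE, adjusted p = 0.0628), which passed the threshold in 7 of 12 alternatives and not in the reported fit. Gzma had -2.67 ± 1.01 (adjusted p = 0.157), Nkg7 -2.03 ± 0.705 (0.133), Gzmb -1.45 ± 0.739 (0.274), Klrk1 0.40 ± 0.244 (0.352) and Klrd1 0.16 ± 0.389 (0.839). The 3 granule genes that could be tested therefore all had values below 0 here, and none passed. These calls depended on the scaling: with library size alone in place of TMM, which moved the median log2 difference of all tested genes by -0.32, 764 genes were called, 376 of them higher, and 5 members, with Gzma (-3.10), Nkg7 (-2.45), Gzmb (-1.78) and Il2rb (-2.26) lower and Ccl5 (1.78) higher in pools numbered 2. Gzma and Nkg7 were also called with sex as a second term in the fit, at -2.79 (adjusted p = 0.00257) and -1.97 (adjusted p = 0.00472). That fit called 807 of the 10865 genes. Without female pool 1 the differences of Gzma and Nkg7 were -3.39 and -2.70. The difference of Ccl5 was 2.74 without female pool 2 and 1.28 without male pool 2. Without male pool 1 the differences of the granule genes were smaller, with Gzma at -0.69, Nkg7 at -0.51 and Gzmb at -0.16, and Ccl5 was at 1.86. That fit set female pool 1 alone against both pools numbered 2. Between the female pools, Nkg7 was lower in pool 2 by a log2 difference of -1.505, and Gzma went from 15 reads to 0. Gzmb was higher in female pool 2, by 0.54.

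**Figure D3:**
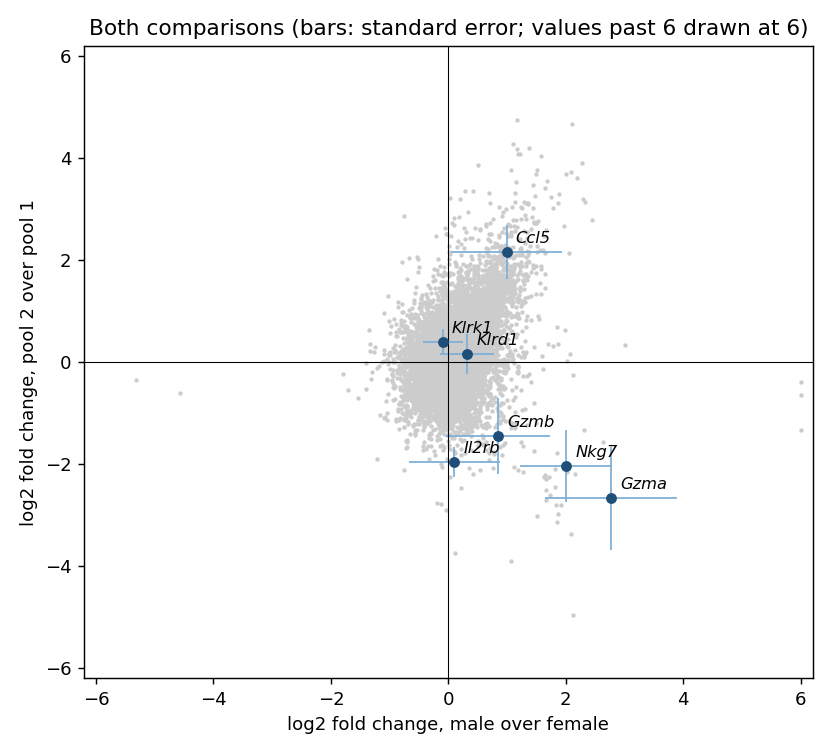
Log2 difference of male over female pools (horizontal axis) against that of pools numbered 2 over pools numbered 1 (vertical axis), both from the same 4 pools, for the 10865 tested genes in grey, values past 6 drawn at 6, and the 7 tested members in colour with bars of 1 SE. Gzma and Nkg7 lie to the lower right, at 2.77 and 2.01 by sex and -2.67 and -2.03 by number, and Ccl5 lies above, at 2.16 by number.

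Since 7 of the 10 members had their highest level in male pool 1, that pool was set against the other 3 pools combined. Of these 7, Prf1, Klrb1c and Ncr1 had too few reads to be tested. This is a comparison of libraries chosen after their values were seen, with no replicate, and the 95% exact binomial intervals cover counting error only. Gzma was 8.22 times as high in male pool 1 (interval 5.50 to 12.8), Nkg7 5.41 times (4.09 to 7.27), Gzmb 3.82 times (2.34 to 6.51) and Prf1 3.57 times (1.28 to 12.3). Il2rb was 1.99 times as high (1.69 to 2.34), just under 2-fold. Klrk1 was at 0.763 (0.627 to 0.927) of the other pools, Klrd1 at 0.728 (0.568 to 0.931) and Ccl5 at 0.244 (0.235 to 0.253). Klrb1c had 17 reads in male pool 1 and 0 in the other 3 pools, and the exact interval of its ratio began at 4.09. Ncr1, at the floor, allows no fold. Of the 7 tested members, 3 were at least 2-fold higher in male pool 1, against 183 of the 10865 tested genes (1.68%). The highest level was in that pool for 4 of the 7 tested members, against 26.1% of tested genes. The members were picked with this pool's values known, so nothing is read from the larger shares.

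**Figure D4:**
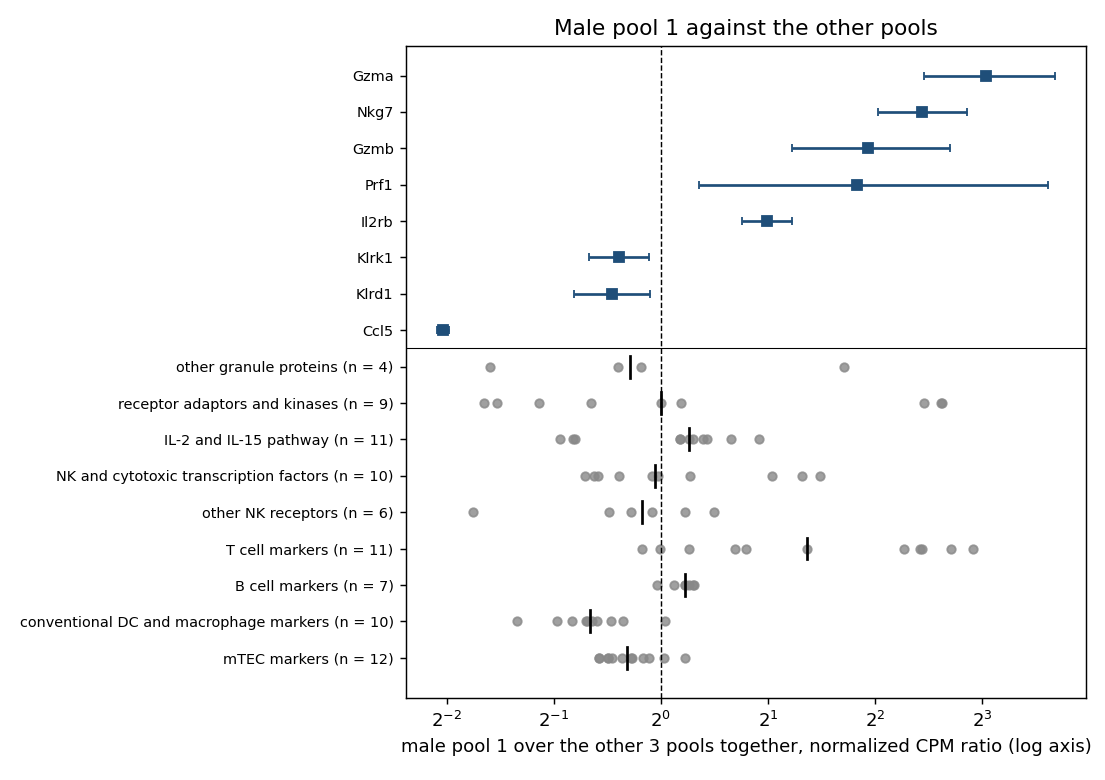
Level in male pool 1 divided by that in the other 3 pools together (horizontal axis, log scale) for the 8 members with reads in the other pools (squares, with 95% exact intervals for counting error) and, underneath, for the tested genes of 9 lists (grey points, with a black line at each list's median). The 4 granule genes lie to the right of 1, with Gzma at 8.22, Ccl5 lies to the left at 0.244, and the T cell markers have a median of 2.57.

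Most markers of T cells, though not the coreceptor genes Cd4 and Cd8a, were also highest in male pool 1. The coreceptor gene Cd8b1 was highest there, with 34.8 and 33.7 CPM in the female pools and 98.7 and 47.0 CPM in the male pools. The 12 T cell markers summed to 357 and 306 CPM in the female pools, 1032 in male pool 1 and 436 in male pool 2, with no marker at 0. Of the 11 that were tested, 7 were highest in male pool 1 and 6 were at least 2-fold higher there. The shares over all tested genes were 26.1% and 1.68%. The median ratio of the markers was 2.57, against 0.991 over all tested genes. The 3 most abundant were the coreceptor genes Cd8a, with 93.0, 125, 144 and 153 CPM, and Cd4, with 38.3, 52.0, 48.1 and 79.7 CPM, and Cd3g, a chain of the T cell receptor complex, with 63.1, 27.7, 251 and 36.6 CPM. Cd8a and Cd4 were thus highest in male pool 2, at 1.20 and 0.882 times the other pools in male pool 1, and so were Thy1 (ratio 1.62) and Ptcra (0.991). Cd3e, another chain of the receptor complex, had 17.1, 8.41, 90.0 and 7.32 CPM. Dntt, the polymerase that thymocytes use while they rearrange receptor genes, was 6.54 times as high in male pool 1 as in the other pools together. The defining NK cell markers Klrb1c and Ncr1 had 17 and 3 reads in male pool 1 and were at 0 in the other 3 pools. Eomes, the T-box factor of NK cells, had 3, 1, 6 and 1 reads. Tbx21, which encodes T-bet, had 27, 23, 61 and 14 reads, and the NK receptor gene Klre1 had 5, 1, 11 and 6. The B cell markers had a median ratio of 1.17, and none of the 7 tested was 2-fold higher in male pool 1. The B cell receptor chain genes Cd79a and Cd79b were at 0.974 and 1.09 times the other pools. The part of T cell RNA in the granule gene values was not tested.

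Ccl5 was lowest in male pool 1, as were 6 of 10 markers of myeloid cells, against 2659 of all 10865 tested genes. The 10 markers of conventional dendritic cells and macrophages summed to 1991 and 3349.7 CPM in the female pools and 1474.5 and 4427 CPM in the male pools, in the same order of pools as Ccl5, and had a median log2 difference of 0.87 for pools numbered 2 over 1, against -0.03 over all tested genes. Most of that sum is Lyz2, the lysozyme of macrophages, with 1161, 2397, 840.5 and 3327 CPM. The next were Flt3, a cytokine receptor of dendritic cells, with 412, 317, 264 and 338 CPM, and Cd68, a lysosomal protein of macrophages, with 144, 246, 118 and 276 CPM. Zbtb46, Xcr1, Clec9a and Emr1 were not lowest in male pool 1. Among 12 effector cytokines and homing genes of NK cells, 8 were tested and 0 called in either comparison. The sister chemokine genes had the order of Ccl5, with Ccl4 at 1019.9, 1543, 478 and 3842 CPM (log2 1.85 by number, adjusted p = 0.0962) and Ccl3 at 286, 371, 154.5 and 804 CPM (1.42, adjusted p = 0.107). Cx3cr1, a homing receptor, had 29.1, 34.1, 9.92 and 60.8 CPM. Ccr1, a receptor for CCL5, had 25.3, 19.8, 21.6 and 20.4 CPM and was called in neither comparison. This order of pools was not particular to the genes of these lists. Psmg4, with 47.0, 80.2, 35.7 and 212 CPM, and Rps25, with 1285, 2196, 1019 and 6260 CPM, had it too. Both were found by their likeness to the summed members. The part of myeloid RNA in the Ccl5 values was not tested.

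The signalling partners of the receptors held the one other call. Of the 9 adaptor and kinase genes, all tested, Hcst, which encodes the DAP10 adaptor of NKG2D, was higher in pools numbered 2, with a log2 difference of 1.64 ± 0.318 (SE, adjusted p = 0.0455) and 25.3, 54.9, 26.0 and 104 CPM, whereas its receptor Klrk1 had 0.40 ± 0.244. Tyrobp, the DAP12 adaptor, had 527, 1026, 418 and 2639 CPM, the adaptor Fcer1g 354, 471, 218 and 1142 CPM, and the exchange factor gene Vav1 144, 175, 160.3 and 112 CPM. The T cell receptor signalling genes of the same list were highest in male pool 1 instead: Cd247, the zeta chain, had 13.9, 6.43, 57.7 and 8.86 CPM, and the kinase Zap70 2.45, 3.46, 17.1 and 2.70 CPM. These T cell receptor genes were named after their values were seen.

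In the other lists described here no gene was called by sex or by pool number. Of 13 other granule proteins only 4 could be tested. Srgn, the granule proteoglycan, Ctsc, the protease that activates granzymes, and Tnfsf10, the death ligand TRAIL, were the most abundant, at 0.757, 0.881 and 0.331 times the other pools in male pool 1. Ctsw, a cathepsin of cytotoxic cells, was 3.27 times as high in male pool 1, at 15.5, 16.8, 45.3 and 9.24 CPM. The 7 genes of granule release (6 tested) had a median ratio in male pool 1 of 0.885 and the granzyme inhibitors one of 0.793, with Serpinb9, the inhibitor of granzyme B, even over the pools at 258, 275, 259.6 and 289.9 CPM. Lamp1 and Stxbp2 led the release genes, at ratios of 0.791 and 0.934, before Stx11, which ran from 29.3 to 54.9 CPM. Serpinb6b and Serpinb6a followed Serpinb9 among the inhibitors, at 0.666 and 0.903. Of 26 other NK receptors, 6 were tested, with a median ratio of 0.885, and Slamf7, the most abundant, had 201, 240.0, 175.5 and 314 CPM, ahead of Fcgr3 and Cd244 at ratios of 0.297 and 0.826. Of the 12 genes of the IL-2 and IL-15 pathway 11 were tested, and Il2rg, the chain that pairs with that of Il2rb, had 681, 553, 713 and 457 CPM, the same order of pools as Il2rb over a narrower range, and Jak1 and Cish both had a ratio of 1.13. Of 12 transcription factors of cytotoxic cells, 10 were tested and 3 were at least 2-fold higher in male pool 1, against 1.68% of all tested genes. They were Ets1 at 2.05, Tox at 2.50 and Gata3 at 2.80 times. Id2 and Nfil3, the most abundant factors, had ratios of 0.650 and 0.982, and Tbx21, which encodes T-bet, had 7.34, 11.4, 7.29 and 5.39 CPM. Of the 11 ligands of the receptors 3 were tested, H2-T23, which presents to CD94, being the most abundant at 828.5, 722, 628 and 649.9 CPM, and Clec2d and Clec2i next at ratios of 0.561 and 1.11. The plasmacytoid dendritic cell markers had a median ratio of 0.780, with Ly6d, Irf8 and Bst2 at 0.783, 0.626 and 0.583. The mTEC markers had one of 0.802, with Cd40, Krt8 and Krt18 at 0.826, 0.712 and 0.730.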

How the data were processed

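Polyadenylated RNA of the 4 pools was made into libraries with a SMARTer ultra-low input kit and read in 50-base reads. Per the labels and methods, the authors trimmed reads with Trimmomatic, aligned them to mm9 with TopHat2 and counted them per gene with HTSeq-count. The gene annotation and strand setting are not given in the sources used here. The deposited values are raw counts for 23366 symbols, and 5 rows of unassigned reads (66.9% to 70.2% of each pool's sum) were left out.

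Counts were scaled by TMM and tested with edgeR 4.0.16 by quasi-likelihood, over genes passing filterByExpr at a minimum count of 10 (10865 genes), with Benjamini-Hochberg adjustment at 0.05 and a prior count of 0.125. Sex and pool number were each fitted alone over the 4 pools. Lengths are the union of exons in GENCODE M1 (NCBIM37), where 90.1% of symbols matched 1 gene. Scripts were tested on simulated data.

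The members and the gene lists were chosen with earlier results of these data known. The text names each member, the 3 most abundant genes and any called gene of each list described, and other genes, such as Cd3e and Cd247, chosen after their values were seen. Some genes of the lists are not reported here. Alternatives were upper-quartile normalization, library size only, DESeq2 1.42.0, no filter, the exact test, keeping genes that exceed 1 CPM in 2 pools, a prior count of 2 (which changes no p), a replicate block, sex as a second term, thinned counts, and leaving out each pool.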

Additional observations from a re-analysis of the deposited data

Results flagged for a closer look

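A group of 5 members went in opposite directions between the sexes in the 2 numbered pairs of pools. With each pair holding 1 pool of each sex, the difference between the pairs was not tested. The log2 difference of male over female was 1.83 between the pools numbered 1 and -1.78 between the pools numbered 2 for Gzmb. It was -0.48 and 1.20 for Klrd1, -0.22 and 0.013 for Klrk1, 0.25 and -0.55 for Il2rb, and -0.67 and 1.42 for Ccl5. Gzma and Nkg7 were higher in the male pool of both pairs, Nkg7 by 2.19 and 1.51.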

How the results depend on the processing

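By sex, 0 genes were called in the reported fit, 5 with library size only, 3 with DESeq2, 26 with no filter on low counts and 8 with the exact test, and leaving out a pool gave 0 to 631 calls, with 52 without male pool 2 and the 631 without male pool 1. Members called by sex were 0, but 2 with no filter (Gzma and Nkg7), and 0 to 2 when a pool was left out. With the pool number as a replicate block, 17 genes and 2 members were called by sex, Gzma (log2 2.95, adjusted p = 0.0126) and Nkg7 (1.99, adjusted p = 0.0446). The labels do not say what same-numbered pools share beyond the number. Over genes, the deviations of female pool 1 and male pool 1 from the mean of their sex correlated at 0.53. The pools numbered 2 give the same value by construction, so this is 1 value for both pairs. By pool number, the 221 calls became 764 with library size only, 651 with DESeq2, 1504 with no filter, 1138 with the exact test, 807 with sex as a second term and 123 with counts thinned to 1 depth (median of 20 draws, 1 to 223), and leaving out a pool gave 170 to 2810, the last without female pool 2. The 1 member called became 5, 2, 5, 3 and 4 in the first 5 of these, and 1 to 3 when a pool was left out. In the male pool 1 comparison the 183 genes became 519 with library size only.

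The log2 ratio of the summed members was 0.96 for male over female (-0.87 to 1.75 with a pool left out) and 1.88 for pools numbered 2 over 1 (1.02, without male pool 2, to 2.45), or -0.91 without Ccl5, which was tried after the data were seen. Signs turned for Klrd1 by number with library size only (-0.22) and for Il2rb by sex with the replicate block (-0.053). With a pool left out, log2 differences by sex ran from -1.45 to 1.59 for Gzmb, 0.92 to 9.13 for Gzma, 0.47 to 3.00 for Nkg7, -0.15 to 0.82 for Klrd1, -0.35 to 0.16 for Klrk1, -1.58 to 1.09 for Il2rb and -1.23 to 1.83 for Ccl5, and by number from -0.59 to 0.66 for Klrd1. The 9.13 rests on a lone female pool with 0 reads and the prior count, and is no bound. A lone pool left in a group is assumed to vary like the others, and leaving out a pool partly confounds sex with pool number. The cause of these changes was not tested. Depth limits Prf1, Klrb1c and Ncr1, which had at most 3 reads in every pool but male pool 1.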

Other observations

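The 5 genes, of 10844 compared over the 4 pools, whose profile lay nearest to the sum of the 10 members were Psmg4 (root mean square distance 0.0341 on the log2 scale), 1500011K16Rik (0.0419), Tyrobp (0.0448), Rps25 (0.0545) and Fabp5 (0.0563). That sum is mostly Ccl5. For the sum without Ccl5, tried after the data were seen, they were 9130019O22Rik (0.0456), Dnajc27 (0.0505), Tcf12 (0.0574), Arntl (0.0635) and Entpd5 (0.0829), so the lists share 0 genes. Likeness over only 4 pools is a description. Some other genes with few reads, named after their values were seen, also had a higher CPM in male pool 1 than in the other pools together. Cxcr6, a homing receptor, had 4, 3, 65 and 2 reads in female pools 1 and 2 and male pools 1 and 2 (ratio 7.16). Gzmc had 6, 1, 37 and 6 (2.82), and Fasl, the death ligand of cytotoxic cells, 2, 0, 20 and 1 (6.61). Not all such genes did so: Gzmm, Klri2 and Klre1 had ratios of 0.397, 0.69 and 0.909.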
